A study of Mus musculus with 93 samples.

Results

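Immediate early genes were followed in small pools of sorted cardiac progenitor cells (CPCs), namely Fos, Fosb, Jun, Junb, Egr1, Ier2, Ier3, Atf3, Dusp1 and Zfp36. These 10 genes form a list of genes known to respond when a tissue is taken apart into single cells, and all 10 were present among the 24514 gene symbols of the count table. RNA was sequenced from 93 wells with 10 cells each. The cells came from embryos or from spheroids of 1 embryonic stem cell line, and both carried the Hcn4-GFP reporter, the Tbx1-Cre driver and the Ai9 red reporter. GFP+ cells expressed Hcn4-GFP, a marker of the first heart field, and RFP+ cells were Tbx1-Cre progeny of the second heart field lineage, in which Ai9 stays on once Cre has acted. In vivo there were 5 wells of GFP+ and 4 of RFP+ cells. In vitro, 38 GFP+ and 46 RFP+ wells were filled from spheroids differentiated for 5.5 days. For the embryo wells, embryonic day 8.5 stands in the titles, whereas the protocol names E7.75. Cells of every group were released with the enzyme mix TrypLE and passed through a sorter. No undissociated cells were analysed here, so an effect of the dissociation common to all groups was not tested. Which embryo or differentiation a well came from is not given, so n is a number of wells, and p-values measure the spread between wells, which may be technical.

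Immediate early genes are transcribed within minutes of a signal without the need for new protein, through kinases of the MAPK family and factors such as SRF and CREB that already sit in the cell. Most of their products are transcription factors that pass the signal on, and a few of them shut the response down. Enzymatic digestion, mechanical force and warming can all set them off, which is why they are often read as a record of cell handling as well as of signalling in the tissue. In this list, Fos, Fosb, Jun and Junb encode subunits of the AP-1 transcription factor. Egr1 encodes a zinc finger transcription factor induced by growth factors, Atf3 a stress-induced factor of the ATF/CREB family, and Ier2 and Ier3 short-lived early response proteins. Dusp1 encodes a phosphatase that switches MAPKs off, and Zfp36 encodes tristetraprolin, which destabilises messages with AU-rich elements.

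Of the genes, 5 were lower in RFP+ than in GFP+ spheroid cells by the tests given below. The bases just before their transcription starts are shown here because they can hold sites through which such genes are switched on. Sites farther upstream are not shown. The stretches are the 150 bases upstream of the start in RefSeq's promoter windows for GRCm38.p6, 5′ to 3′ on the strand of the gene. For Atf3, Dusp1 and Zfp36 this start lies inside the span that the GENCODE M21 annotation gives the gene. Capitals mark the cyclic AMP response element (CRE) octamer TGACGTCA, its half-site CGTCA, the AP-1 and CRE variant octamer TGACNTCA, the AP-1 heptamer TGANTCA, the CArG box bound by SRF and the TATA box TATAAA, each on both strands except the last, which was read on the sense strand.
Fos (chr12:85473740-85473889, plus strand): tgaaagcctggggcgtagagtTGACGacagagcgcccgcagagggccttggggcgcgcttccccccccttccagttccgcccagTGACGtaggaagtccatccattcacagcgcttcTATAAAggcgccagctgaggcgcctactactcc
Jun (chr4:95052223-95052372, minus strand): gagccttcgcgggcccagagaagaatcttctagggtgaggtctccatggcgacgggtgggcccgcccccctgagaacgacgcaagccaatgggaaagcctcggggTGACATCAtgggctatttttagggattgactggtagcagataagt
Atf3 (chr1:191183334-191183483, minus strand): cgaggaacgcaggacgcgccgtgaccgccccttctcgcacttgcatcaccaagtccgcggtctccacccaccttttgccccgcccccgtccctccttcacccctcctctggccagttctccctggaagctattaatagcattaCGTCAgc
Dusp1 (chr17:26508473-26508622, minus strand): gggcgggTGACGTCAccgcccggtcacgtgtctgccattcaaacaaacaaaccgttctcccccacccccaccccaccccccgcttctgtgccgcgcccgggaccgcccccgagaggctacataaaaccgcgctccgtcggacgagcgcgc
Zfp36 (chr7:28379229-28379378, minus strand): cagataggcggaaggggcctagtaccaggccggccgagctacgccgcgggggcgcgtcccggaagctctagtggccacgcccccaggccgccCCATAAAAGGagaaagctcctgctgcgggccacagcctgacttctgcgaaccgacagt

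RefSeq windows of 250 bases before to 50 bases after the start were found for 8 of the 10 genes. The windows of Egr1 and Ier2 were not used here. The CRE octamer was present in 1 of the 8 windows, that of Dusp1 at positions -143 to -136, and in 1.79% of all 32851 windows of this length. A CRE half-site was present in 5 of 8, in Fos, Fosb, Junb, Atf3 and Dusp1, against 20.8% of all windows. TGACNTCA was found in 2 of 8, at -45 to -38 in Jun and over the octamer of Dusp1, against 8.83%, and the AP-1 heptamer in 0 of 8, against 7.81%. The CArG box was found in 1 of 8, Zfp36 at -58 to -49, against 1.63% of all windows, and TATAAA in 2 of 8, Fos at -33 to -28 and Junb at 1 to 6, against 8.32%. Of motifs not capitalised above, the GC box GGGCGG was present in 7 of 8 windows against 35.7%, CCAAT in 4 of 8 against 37.4%, and the Egr site GCGNGGGCG in 2 of 8, Fosb and Zfp36, against 5.55%. The CRE octamer contains the half-site on both strands and is itself a form of TGACNTCA, and the Egr site can share bases with a GC box, so these counts are not separate. A match is a run of letters and not a bound site, and no binding was measured in these cells. Sites farther upstream than the windows were not searched, so a window without a match does not show that a gene lacks the site.

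**Figure D1:**
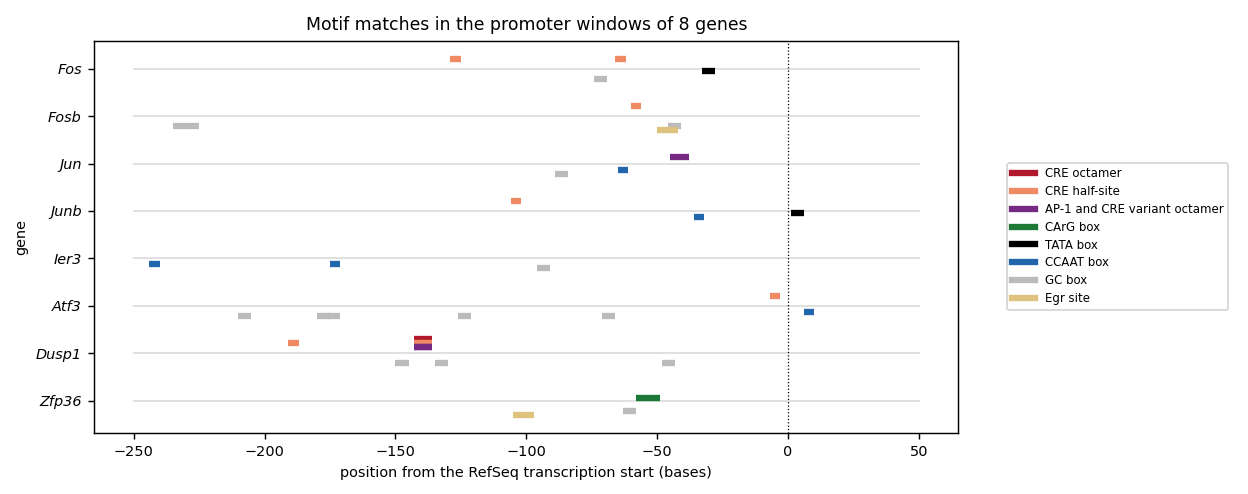
Motif matches in the RefSeq promoter windows of the 8 genes that have one, drawn as coloured bars by distance from the transcription start in bases (x axis), with 1 line per gene. GC boxes lie in every window but that of Junb, and the only CRE octamer is that of Dusp1, between -143 and -136.

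Between 712732 and 2525460 reads were counted per GFP+ embryo well, 1246546 to 1479957 per RFP+ embryo well, 6288 to 4371849 per GFP+ spheroid well and 445071 to 5658882 per RFP+ spheroid well. Embryo GFP+ wells held fewer detected genes (6189 to 8302) than embryo RFP+ wells (10263 to 13052), so a count of 0 was more common there at a like depth. The GFP+ spheroid well C9, with 6288 reads, had 1 Atf3 read and none of the other 9 genes, and the next smallest GFP+ total was 828193. Results that rest on GFP+ spheroid wells are therefore also given without it where they move. In 7 plate rows the RFP+ spheroid wells of columns 3 and 4 were closer to each other (r 0.951 to 0.987) than any of the 1028 other pairs of RFP+ spheroid wells (0.863 to 0.935), and they were kept as separate wells. GFP+ spheroid wells lay in plate columns 7 to 11 and RFP+ spheroid wells in columns 1 to 6, so the place on the plate and the population cannot be told apart. GFP+ embryo wells lay in column 12, rows A to E, and RFP+ embryo wells in columns 11 and 12, rows F to H. Place and group cannot be told apart in the embryo comparisons either. Markers of the first heart field and of cardiomyocytes (6 genes, all with reads in every group) had a median summed level of 21485 CPM (counts scaled to the library total) in GFP+ and 885 CPM in RFP+ embryo wells. In the spheroids their medians were 18.8 CPM in GFP+ and 32.8 CPM in RFP+ wells. Of the 2 of these genes tested in the spheroids, Myl7 was lower in RFP+ cells (-1.42 ± 0.48, edgeR adjusted p = 0.00612) and Actc1 was not called (-0.24 ± 0.37, adjusted p = 0.560). Of 5 tested second heart field markers, 4 were higher in RFP+ spheroid cells and Isl1 was lower. Over all genes tested in the spheroids, 39.2% were higher and 38.7% lower in RFP+ cells.

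Together the 10 genes made up a small part of each library. Their summed level had a median of 77.6 CPM in GFP+ embryo wells (41.9 to 160), 119 CPM in RFP+ embryo wells (83.3 to 132), 349 CPM in GFP+ spheroid wells (159 to 581) and 99.2 CPM in RFP+ spheroid wells (57.3 to 164). The highest share in any well was 0.0581% of the counts, in a GFP+ spheroid well. GFP+ spheroid wells were thus the group with the highest summed level, and their lowest well apart from C9, at 177 CPM, lay above the highest RFP+ spheroid well. The number of the 10 genes with at least 1 read had a median of 3 in GFP+ embryo wells, 8.5 in RFP+ embryo wells and 9 in both spheroid populations.

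Levels per length differed between the genes, on the scale of CPM per kilobase of exonic sequence in the GENCODE M21 annotation. In GFP+ spheroid wells, Atf3 had the highest mean at 84.6 CPM per kilobase, followed by Dusp1 at 15.9, Ier2 at 13.4, Fos at 10.6 and Jun at 8.96. In RFP+ spheroid wells Ier2 led with 27.6 CPM per kilobase, followed by Atf3 at 7.92, and Ier2 also led in RFP+ embryo wells with 33.5. In GFP+ embryo wells Fos (17.4) and Ier3 (17.1 CPM per kilobase) were highest. Atf3 alone made up a median of 52.2% of the summed CPM of the 10 genes in GFP+ spheroid wells and 13.1% in RFP+ spheroid wells. In the GFP+ embryo wells it made up 0%.

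**Figure D2:**
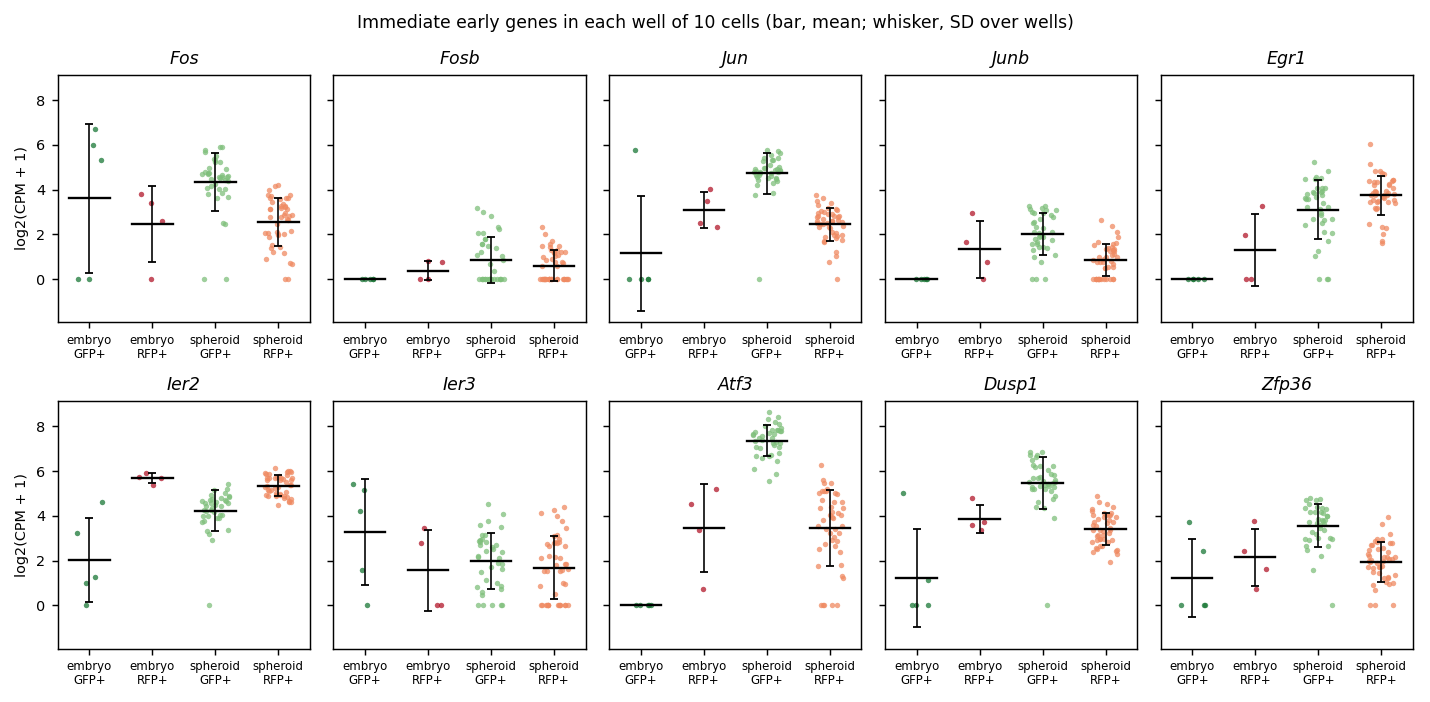
Level of each gene in every well, as log2(CPM + 1) with CPM from total counts (y axis), in 5 GFP+ and 4 RFP+ embryo wells and 38 GFP+ and 46 RFP+ spheroid wells (x axis). Points are wells of 10 cells, bars are means and whiskers are SD over wells. Atf3 has 0 reads in all 5 GFP+ embryo wells and its highest values in GFP+ spheroid wells, and the GFP+ spheroid point at 0 for genes such as Jun and Dusp1 is well C9.

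The first comparison asked how the heart field populations of the spheroids differed. Fos, Jun, Atf3, Dusp1 and Zfp36 were lower in RFP+ than in GFP+ cells, Ier2 was higher, and Egr1 passed the test by a small margin in the higher direction. Of the 7 genes that passed the filter on low counts, 5 were lower in RFP+ cells and 2 higher (edgeR quasi-likelihood test, adjusted p under 0.1). Across all 9940 genes tested, 38.7% were lower and 39.2% higher, so most genes of any kind passed in this comparison. The median log2 fold change (RFP+ minus GFP+) of the 7 genes was -2.0, against 0.01 over all genes tested. Fosb, Junb and Ier3 fell under the filter.

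Among the AP-1 subunits, Fos (chr12:85473890-85477273, plus strand) had its lowest, median and highest level at 0, 23.0 and 59.3 CPM in GFP+ wells and at 0, 5.89 and 17.7 CPM in RFP+ wells. In 26 of 38 GFP+ wells Fos lay above the highest RFP+ well, and the groups overlapped. Its log2 fold change was -2.0 ± 0.22 (SE, edgeR adjusted p = 1.45e-13). Jun (chr4:95049034-95052222, minus strand, 1 exon) ran from 0 over 27.1 to 54.1 CPM in GFP+ wells and from 0 over 4.93 to 12.5 CPM in RFP+ wells. The 37 GFP+ wells other than C9 all had more Jun (12.6 CPM or more) than every RFP+ well, and the log2 fold change was -2.46 ± 0.14 (edgeR adjusted p = 2.66e-29). How many of all genes separate the spheroid groups in this way was not counted. Fosb (chr7:19302696-19310051, minus strand), the close relative of Fos, was near the limit of detection, with reads in 19 of 38 GFP+ and 23 of 46 RFP+ wells and a highest level of 8.08 CPM. Junb (chr8:84974484-84978718, minus strand) had reads in 35 of 38 GFP+ and 32 of 46 RFP+ wells, with medians of 3.06 and 0.79 CPM. Without the filter on low counts, the log2 fold change of Junb was -1.79 (edgeR adjusted p = 5.45e-07) and that of Fosb was -0.90 (adjusted p = 0.0831), while a permutation test of mean log2 CPM gave p = 0.17 for Fosb. The 4 AP-1 genes thus all had a higher mean in GFP+ wells, with 3.88, 5.58, 3.68 and 1.95 times the RFP+ mean CPM for Fos, Jun, Junb and Fosb.

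Atf3 (chr1:191170296-191218039, minus strand), the stress-induced ATF/CREB factor whose RefSeq start is preceded by the CRE half-site at -7 to -3 shown above, had the largest log2 fold change of the 7 genes tested. It ran from 45.7 over 179 to 399 CPM in GFP+ wells and from 0 over 13.6 to 76.0 CPM in RFP+ wells, where 5 of 46 wells had no read. In 35 of 38 GFP+ wells Atf3 was above the highest RFP+ well, or in 34 of 37 without C9, where Atf3 rests on 1 read. The means were 182 ± 80 and 17.0 ± 16 CPM (SD, n = 38 and 46), and the log2 fold change was -3.34 ± 0.21 (edgeR adjusted p = 1.44e-27).

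Egr1, the growth factor-responsive zinc finger gene, had levels from 0 over 10.2 to 36.6 CPM in GFP+ wells and from 2.09 over 12.9 to 64.7 CPM in RFP+ wells. The groups overlapped over nearly their whole range, and 1 RFP+ well lay above the highest GFP+ well. The log2 fold change of 0.44 ± 0.23 passed (edgeR adjusted p = 0.0731), but without well C9 it was 0.40 (adjusted p = 0.105), and over wells of at least 500000 reads, which also leaves C9 out, it was 0.45 (adjusted p = 0.0717). Ier2 (chr8:84661331-84662852, minus strand, 1 exon) ran from 0 over 21 to 41.8 CPM in GFP+ wells and from 21.2 over 40.4 to 68.7 CPM in RFP+ wells. In 21 of 46 RFP+ wells it was above the highest GFP+ well, the opposite of Atf3 and Jun, and its log2 fold change was 1.00 ± 0.11 (edgeR adjusted p = 3.08e-13). Ier3 (chr17:35821684-35822923, plus strand), which modulates survival signalling, had means of 4.65 ± 4.8 CPM in GFP+ and 4.11 ± 5.1 CPM in RFP+ wells, with no read in 5 and 14 wells, and a permutation test of mean log2 CPM gave p = 0.301.

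The feedback genes Dusp1 and Zfp36 were lower in RFP+ cells as well. Dusp1 (chr17:26505590-26562128, minus strand) ran from 0 over 44.9 to 116 CPM in GFP+ wells and from 2.78 over 9.31 to 28.7 CPM in RFP+ wells, and 32 of 38 GFP+ wells lay above the highest RFP+ well. This was a log2 fold change of -2.29 ± 0.16 (edgeR adjusted p = 5.95e-25). Zfp36 (chr7:28376784-28380253, minus strand, 1 exon) ran from 0 over 12.4 to 27.3 CPM in GFP+ wells and from 0 over 3.02 to 14.3 CPM in RFP+ wells. For Zfp36 the log2 fold change was -1.88 ± 0.21 (edgeR adjusted p = 8.80e-14), and 15 of 38 GFP+ wells lay above the highest RFP+ well. For Fos, Jun, Junb, Ier2, Atf3, Dusp1 and Zfp36, a two-sided permutation test of mean log2 CPM gave p = 1e-05, the smallest that 100000 resamples can give.

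The separation held across plate columns, within the limit that no column holds both populations. Column medians of Atf3 lay between 130 and 207 CPM in the GFP+ columns and between 9.6 and 19.8 CPM in the RFP+ columns. Those of Dusp1 were 39.9 to 53.4 against 5.50 to 13.6 CPM, those of Jun 23.6 to 32.3 against 2.82 to 6.12 CPM, and those of Fos 17.0 to 25.5 against 3.18 to 8.53 CPM. For Ier2 the order was turned, with 18.8 to 23.7 CPM in the GFP+ and 31.4 to 52.0 CPM in the RFP+ columns. Column medians of Egr1 overlapped (3.23 to 15.8 and 11.9 to 18.3 CPM). With plate row as a covariate, and with the near-identical RFP+ wells summed, 7 members were called in each case.

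Markers of other cell types also differed between the spheroid populations, in both directions. Markers of pluripotent cells (5 genes, 4 of them tested) were lower in RFP+ cells for 4 of 4, against 38.7% of all genes tested. A further 39.2% of all genes were higher. The summed level of the pluripotency markers had a median of 156 CPM (34.9 to 1508) in GFP+ and 23.4 CPM (4.25 to 538) in RFP+ wells. Markers of macrophages, 5 genes of which all had reads in both spheroid populations, summed to a median of 0.589 CPM in GFP+ and 0 CPM in RFP+ wells. Of markers of other lineages, Kdr (3.60 ± 0.34, edgeR adjusted p = 7.07e-17), of endothelial progenitors, and Foxa2 (1.91 ± 0.37, adjusted p = 2.97e-06), of endoderm, were higher in RFP+ cells. Of 3 tested neural markers, Nes was lower (-0.96), Otx2 higher (0.74) and Sox2 not called (-0.34). The part of pluripotent or other cells in the difference was not tested. Since each library is a bulk of 10 cells, a few cells with high levels and a like shift in every cell cannot be told apart.

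Further immediate early genes were read from a list of 50 that holds none of the 10. In the spheroids, 24 of the 29 tested were lower in RFP+ cells and 3 higher, against 38.7% and 39.2% over all genes tested. Their median log2 fold change was -1.19 against 0.01 over all genes. The largest changes among them were those of Plk2 (-2.93 ± 0.13), a Polo-like kinase, Gadd45g (-2.93 ± 0.18), a growth arrest and DNA damage gene, and Pmaip1 (-2.92 ± 0.12), a pro-apoptotic BCL2 family gene, with edgeR adjusted p of 2.51e-37, 3.92e-28 and 7.95e-42. Of a list of 15 heat shock genes, 13 were tested. Of these, 8 were higher and 4 lower in RFP+ cells, beside the same shares over all genes. The lower ones included the small heat shock genes Hspb1 (-3.93 ± 0.19) and Hspb8 (-2.77 ± 0.17) and their co-chaperone Bag3 (-1.0 ± 0.12), with edgeR adjusted p of 2.01e-35, 2.84e-27 and 2.17e-12. Of 20 genes that act upstream, such as kinases of the MAPK cascade and the factors SRF and CREB, 7 of 18 tested were higher and 7 lower. The upstream counts are near the shares over all genes. The largest of those changes were Atf1 (-1.27 ± 0.10, adjusted p = 8.14e-22), the MAPK gene Mapk3 (1.18 ± 0.07, adjusted p = 2.27e-29) and the kinase gene Rps6ka5 (0.98 ± 0.20, adjusted p = 6.07e-06), all by edgeR.

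In vivo, the same comparison of RFP+ with GFP+ cells called none of the 10 genes. Only Fos, Ier2, Ier3 and Dusp1 passed the filter on low counts, and 0 of these 4 were called by edgeR, either at an adjusted p under 0.1 or at an unadjusted p under 0.05, against 6.21% higher and 3.88% lower of the 8503 genes tested. DESeq2 called 2 of the 10, Atf3 and Ier2, against 17.7% of the 10967 genes to which it gave an adjusted p. The values of single wells differed widely, as the map of read counts shows.

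**Figure D3:**
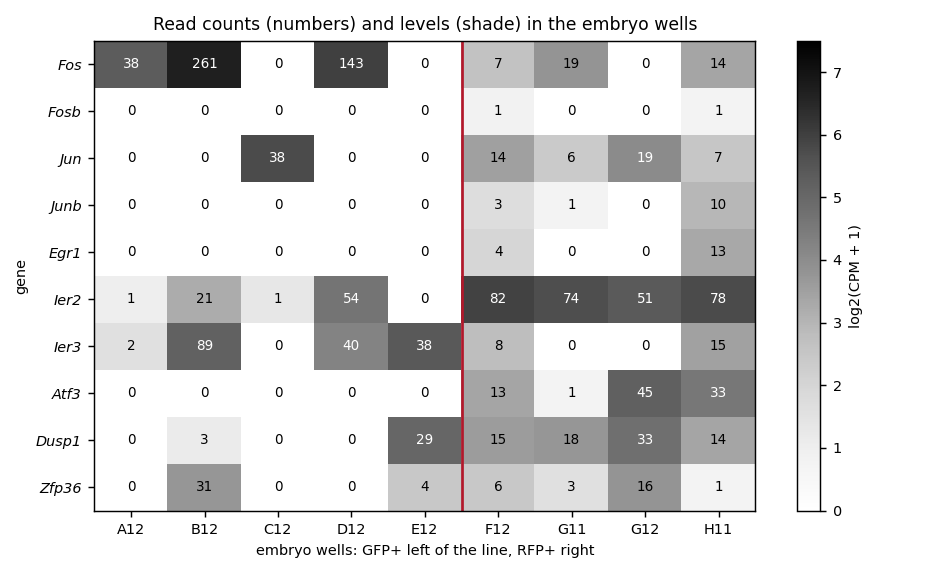
Read counts (numbers) and level as log2(CPM + 1) (shade) of each gene (rows) in the 9 embryo wells (columns), GFP+ left of the line and RFP+ right of it. Fosb, Junb, Egr1 and Atf3 have 0 reads in all 5 GFP+ wells, Jun has reads in 1 of them, and Ier2 is read in all 4 RFP+ wells with 51 to 82 reads.

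Fos was at 38.8, 103, 0, 63.1 and 0 CPM in GFP+ wells A12 to E12 and at 5.11, 13.0, 0 and 9.46 CPM in RFP+ wells F12, G11, G12 and H11. The 3 GFP+ wells with reads were all above the RFP+ wells, but the other 2 had none in 712732 and 914473 reads. The log2 fold change was -2.63 ± 1.92 (edgeR adjusted p = 0.649), and the exact permutation test gave p = 0.516. Jun was at 53.3 CPM in GFP+ well C12 and at 0 in the other 4 GFP+ wells, and at 10.2, 4.10, 15.2 and 4.73 CPM in the RFP+ wells, so that its mean in GFP+ cells (10.7 CPM) came from 38 reads in 1 well. Junb had no read in GFP+ wells and 3, 1, 0 and 10 reads in RFP+ wells, a mean of 2.41 CPM that lies below the limit of 2.61 CPM which 3 reads per GFP+ well allow. Fosb had no read in GFP+ wells and 1 read in each of 2 RFP+ wells.

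Ier2 was the one gene with many reads and no overlap. It was at 1.02, 8.32, 1.40, 23.8 and 0 CPM in GFP+ wells A12 to E12 and at 59.8, 50.5, 40.9 and 52.7 CPM in RFP+ wells. Every RFP+ well was above every GFP+ well, with means of 51.0 ± 7.8 and 6.91 ± 10 CPM (SD, n = 4 and 5). Its log2 fold change was 2.80 ± 1.47 and did not pass the edgeR test (adjusted p = 0.410), DESeq2 gave 2.70 (adjusted p = 0.0938), and the exact two-sided permutation test gave an unadjusted p = 0.0159, where 0.00794 is the smallest p that 5 against 4 wells allow. Over its 14 alternative settings the adjusted p ran from 0.0938 to 0.679, with the higher level in RFP+ cells in 14 of 14. The share of all genes without overlap between these groups was not counted, and GFP+ wells held fewer detected genes.

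Atf3 had no read in any GFP+ well and 9.48, 0.683, 36.1 and 22.3 CPM in RFP+ wells F12, G11, G12 and H11. The groups did not overlap, but in well G11 this rests on 1 read. As for Ier2, the share of all genes without overlap was not counted. The RFP+ mean of Atf3, 17.1 ± 15 CPM (SD, n = 4), was at least 6.56-fold higher than the mean limit of 2.61 CPM that 3 reads per GFP+ well allow. That limit covers counting error only. Atf3 fell under the filter, and with no GFP+ read it could only come out higher in RFP+ cells. Without the filter its edgeR adjusted p was 0.0473, with DESeq2 it was 0.00207, and the exact permutation test gave p = 0.00794, the smallest it can give. Egr1 had no read in GFP+ wells and 2.92, 0, 0 and 8.78 CPM in RFP+ wells, a mean at least 1.12-fold higher than the GFP+ limit (exact permutation p = 0.167).

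Ier3 was at 2.04, 35.2, 0, 17.6 and 41.6 CPM in GFP+ wells and at 5.84, 0, 0 and 10.1 CPM in RFP+ wells. In 3 GFP+ wells Ier3 was above every RFP+ well, and the log2 fold change of -2.29 ± 1.79 did not pass (edgeR adjusted p = 0.689). Dusp1 was at 0, 1.19, 0, 0 and 31.7 CPM in GFP+ wells and at 10.9, 12.3, 26.5 and 9.46 CPM in RFP+ wells. In all, 4 of 5 GFP+ wells were below every RFP+ well and the fifth, E12, was above them all. The log2 fold change was 1.16 ± 1.66 (edgeR adjusted p = 0.887), and without E12 it was 4.98 (adjusted p = 0.0378). Zfp36 was at 0, 12.3, 0, 0 and 4.37 CPM in GFP+ wells and at 4.38, 2.05, 12.8 and 0.676 CPM in RFP+ wells, with overlapping groups (exact permutation p = 0.516).

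Of the 50 further immediate early genes, 22 were tested in vivo and 1 passed, Trib1, a pseudokinase gene, with a fitted log2 fold change of 7.58 ± 1.36 (edgeR adjusted p = 0.0107). Trib1 had 0 reads in the GFP+ wells, so it passed the filter through the RFP+ wells alone and could only come out higher there. Its fitted value depends on the prior count. Of the heat shock genes, 3 of 11 were higher and 1 lower in RFP+ cells. The largest of these changes were those of the chaperonin genes Hspe1 (1.48 ± 0.25, adjusted p = 0.00310) and Hspd1 (-0.80 ± 0.22, adjusted p = 0.0437) and of Hsp90aa1 (0.87 ± 0.20, adjusted p = 0.0156), all by edgeR. None of the 17 upstream genes tested passed. Over all genes tested in vivo, 6.21% were higher and 3.88% lower in RFP+ cells.

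The changes between the populations were then set side by side in embryo and spheroid. Ier2 was higher in RFP+ cells in both sources, by 2.80 on the log2 scale in vivo, where it did not pass, and by 1.00 in vitro. The value of Dusp1 was 1.16 in vivo and -2.29 in vitro, and Atf3 had 0 reads in GFP+ embryo cells while GFP+ spheroid cells had its highest level. The difference between both changes was tested from the separate fits, with 7 degrees of freedom. It was 3.46 ± 1.67 for Dusp1 (adjusted p = 0.496), 1.79 ± 1.47 for Ier2 (adjusted p = 0.809) and -0.63 ± 1.93 for Fos (adjusted p = 0.972), from edgeR fold changes. None of these 3 genes was called, against 5.3% of the 8182 genes tested, 0 of the 3 had an unadjusted p under 0.05, and the other 7 genes could not be tested behind the filter. By the same test, 1 of 22 further immediate early genes was called, Trib1 (6.81 ± 1.37, adjusted p = 0.0516), with 0 reads in GFP+ embryo wells. Of 11 heat shock genes 1 was called, Hspd1 (-1.20 ± 0.23, adjusted p = 0.0427), and of 17 upstream genes 0. With DESeq2 fold changes Atf3 was called, with a difference of 10.2 (adjusted p = 0.0881) against 2.38% of all genes called, and without the filter in edgeR it was not (11, adjusted p = 0.139). Leaving out GFP+ embryo well E12 gave a call for Dusp1 (7.27, adjusted p = 0.0588), and leaving out RFP+ embryo well G11 gave one for Atf3 (11.4, adjusted p = 0.0867). A joint fit over the 4 groups, which assumes the same spread in all of them, called 7 of the 10, against 54.4% of the 12655 genes in that fit.

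**Figure D4:**
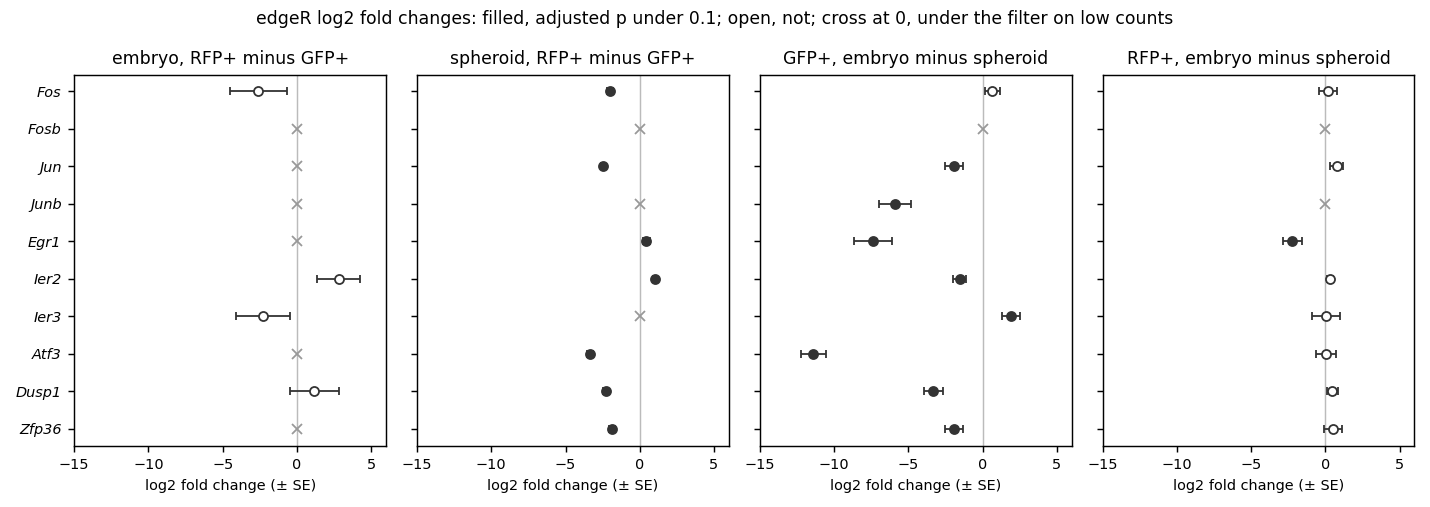
edgeR log2 fold change with SE (x axis) of each gene (y axis) in the 4 comparisons, with filled points for an adjusted p under 0.1, open points for the rest and crosses at 0 for genes under the filter on low counts. The 5 genes lower in RFP+ spheroid cells lie between -1.88 and -3.34, and the embryo values have SEs of 1.47 to 1.92. Fitted values of Junb, Egr1 and Atf3 in GFP+ cells depend on the prior count, since the embryo wells have no read.

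Embryo and spheroid cells of the same reporter were then compared. In GFP+ cells, 7 of the 9 genes tested were lower in embryo cells, namely Atf3, Egr1, Junb, Dusp1, Jun, Zfp36 and Ier2, and Ier3 was higher. Of these, Atf3, Egr1 and Junb had no read in the GFP+ embryo wells. They passed the filter through the spheroid wells alone, so a lower call was the only one open to them. Over all 11822 genes tested, 48.3% were lower and 19.7% higher in the embryo cells, and the median log2 fold change of all genes was -0.67, or -0.22 with the size factors of DESeq2. The 9 genes, those without embryo reads included, had a median of -1.92. Against that lower background, GFP+ embryo cells had fewer detected genes of any kind, and the part of this in the members' values was not tested.

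For Atf3, Egr1 and Junb the GFP+ embryo wells had no read, and only a lower bound can be given, which covers counting error only. With 3 reads per embryo well as the limit, Atf3 was at least 69.7-fold higher in GFP+ spheroid cells, Egr1 at least 4.12-fold and Junb at least 1.46-fold. Every GFP+ spheroid well was above every GFP+ embryo well for Atf3, also without C9 (45.7 CPM or more), and the exact permutation test gave p = 1.04e-06, the smallest that 5 against 38 wells allow. How many of all genes separate these groups fully was not counted. The edgeR adjusted p was 4.36e-16 for Atf3, 2.66e-06 for Egr1 and 6.50e-06 for Junb, with the direction fixed by the lack of embryo reads. Dusp1 was lower in embryo cells by a log2 fold change of -3.32 ± 0.65 (edgeR adjusted p = 1.97e-05), with 31 of 38 spheroid wells above the highest embryo well. Jun had -1.92 ± 0.62 (adjusted p = 0.00630) and rests on well C12 for its embryo level, since without that well the fitted value was -8.77. Zfp36 had -1.89 ± 0.60 (adjusted p = 0.00568) and Ier2 -1.55 ± 0.47 (adjusted p = 0.00378), again by edgeR.

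Ier3 was the one member called higher in GFP+ embryo cells. It was 4.15 times higher in mean CPM in GFP+ embryo cells, with a log2 fold change of 1.92 ± 0.63 (edgeR adjusted p = 0.00752), and 2 of the 5 embryo wells were above the highest spheroid well. The exact permutation test gave p = 0.0699 for Ier3. Fos had means of 41.0 ± 44 CPM in embryo and 24.9 ± 15 CPM in spheroid GFP+ cells (SD, n = 5 and 38). Its log2 fold change of 0.67 ± 0.52 did not pass (edgeR adjusted p = 0.262), was called in 4 of 12 alternatives, with 1.00 by DESeq2 (adjusted p = 0.0895), 1.01 with the size factors of DESeq2 (0.0704), 1.03 without well C12 (0.0604) and 1.04 without well E12 (0.0584), and was -0.09 without well B12 (adjusted p = 0.906), so neither a call nor a direction can be given. Fosb was under the filter and had no read in the embryo wells.

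In RFP+ cells, 1 of the 8 genes tested was called between embryo and spheroid. Egr1 was lower in embryo cells, with 2.92, 0, 0 and 8.78 CPM in the 4 wells against 2.09 to 64.7 CPM in the 46 spheroid wells, and 37 of the spheroid wells were above the highest embryo well. Its log2 fold change was -2.23 ± 0.64 (edgeR adjusted p = 0.00428, exact permutation p = 0.000252). Over all 11147 genes tested, 22.5% were lower and 20.1% higher in embryo cells. The means of Atf3 were 17.1 ± 15 and 17.0 ± 16 CPM in embryo and spheroid cells (SD, n = 4 and 46), those of Ier3 3.99 ± 4.9 and 4.11 ± 5.1 CPM, and those of Fos 6.88 ± 5.6 and 6.41 ± 4.6 CPM. The log2 fold changes of Atf3 (0.03 ± 0.68), Ier3 (0.03 ± 0.95) and Fos (0.17 ± 0.63) were smaller than their SE, which does not show that the levels are alike. Those of Jun, Zfp36, Dusp1 and Ier2 were 0.76 ± 0.45, 0.51 ± 0.62, 0.48 ± 0.38 and 0.32 ± 0.22 and did not pass, with edgeR adjusted p between 0.184 and 0.552. These comparisons share wells with those between the populations, so the values of a gene in one are not independent of those in another.

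Of the further immediate early genes, 25 of 38 tested were lower and 3 higher in GFP+ embryo cells than in GFP+ spheroid cells, and 10 of 33 were lower and 4 higher in RFP+ embryo cells. Over all genes tested, 48.3% were lower and 19.7% higher in GFP+ embryo cells. In RFP+ embryo cells 22.5% were lower and 20.1% higher. All list counts in this paragraph stand beside these shares. A gene without a read in the embryo wells could only be called lower there. Pmaip1 was lower in the embryo cells of both populations, with fitted log2 fold changes of -11.1 ± 0.40 (GFP+, edgeR adjusted p = 9.26e-29) and -7.70 ± 0.87 (RFP+, adjusted p = 6.68e-11). In GFP+ cells the next largest changes were those of Gadd45b, a growth arrest and DNA damage gene, and Ier5, an early response gene, both with no read in the embryo wells. In RFP+ cells they were Egr2 (-3.18 ± 1.35, adjusted p = 0.0592), a relative of Egr1, and Cyr61 (2.33 ± 0.33, adjusted p = 4.77e-08), which encodes a matrix protein and was higher in embryo cells. Heat shock genes were called lower for 6 and higher for 4 of 14 in GFP+ cells, with Hspa1a, Hspb1 (-3.80 ± 0.54) and Hspb8 (-2.41 ± 0.45) leading, and Hspa1a had no read in the embryo wells. In RFP+ cells 3 of 13 were lower and 5 higher, led by Hspb8 (-3.18 ± 0.85), Bag3 (-0.98 ± 0.40) and Hspd1 (0.81 ± 0.08). Of the upstream genes, 6 of 20 were lower and 3 higher in GFP+ embryo cells, led by the kinase gene Rps6ka3 (-3.77 ± 0.50), Creb1 (-2.43 ± 0.43) and Atf1 (-1.77 ± 0.34). In RFP+ embryo cells 5 were lower and 5 higher, led by Elk4 (-2.48 ± 0.98), a partner of SRF, Rps6ka5 (-1.54 ± 0.47) and Srf itself (0.99 ± 0.24).

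Whether the genes moved together from well to well was read within each spheroid population, since the embryo groups hold too few wells. Across the 37 GFP+ wells other than C9, Spearman's rho over the 45 pairs of the 10 genes had a median of 0.019 (-0.388 to 0.500), and across the 46 RFP+ wells a median of 0.010 (-0.249 to 0.265). The medians over all pairs of other genes were 0.002 in both populations. Their 5th to 95th percentiles were -0.287 to 0.293 in GFP+ and -0.270 to 0.275 in RFP+ wells. The pairs shared library, depth and plate position, and many counts were low. The highest value was that of Atf3 with Ier3 in GFP+ wells (0.500), followed by Atf3 with Zfp36 (0.387) and Jun with Atf3 (0.324), and the lowest was that of Jun with Ier2 (-0.388). In RFP+ wells Atf3 with Ier3 is not among the stronger values, which were led by Egr1 with Dusp1 (0.265) and Jun with Atf3 (0.258). Both of these lie within the percentile range of other pairs in RFP+ wells.

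**Figure D5:**
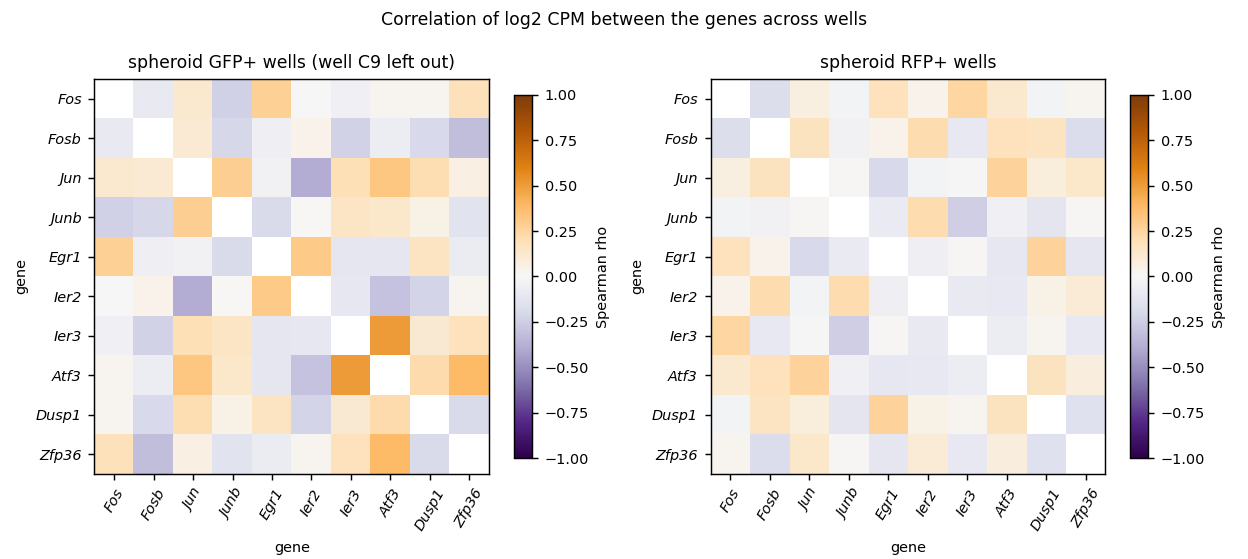
Spearman's rho of log2 CPM between each pair of the 10 genes across 37 GFP+ spheroid wells (left, well C9 left out) and 46 RFP+ spheroid wells (right), with the colour scale from -1 to 1. Most pairs are near 0, and the darkest cell is Atf3 with Ier3 in GFP+ wells at 0.500.

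Fos was set against each of the other 9 genes in both populations, 18 relations in all. By Pearson's r the largest was Fos with Jun in GFP+ wells, with r = 0.520 and Spearman's rho = 0.190 (permutation p = 0.0143 and 0.253, adjusted p = 0.173 and 0.798). Without the 2 wells farthest from the median of Fos, r was 0.07, so the relation rests on them. Without the low-count well C9 alone, r of Fos with Jun was 0.11 (permutation p = 0.532). No relation passed an adjusted p under 0.1 by either measure. Each gene was also set against the total count of the well, 20 relations in all, and none passed by Spearman's rho (lowest adjusted p = 0.357). By Pearson's r several passed in GFP+ wells, the strongest being Jun (0.755, permutation p = 0.0197, adjusted p = 0.0657), and r for Jun was -0.21 without the 2 wells farthest from the median total. Without well C9 r for Jun was -0.12 (permutation p = 0.487). No GFP+ relation with the total count then passed (lowest adjusted p = 0.303, with the near-identical RFP+ wells summed in the same adjustment). In RFP+ wells Atf3 had r = 0.386 and rho = 0.284 with the total count (permutation p = 0.00737 and 0.0568, adjusted p = 0.0597 and 0.357), and r was 0.383 without the 2 farthest wells. With the near-identical RFP+ wells summed, Atf3 had r = 0.249 and the relation did not pass (permutation p = 0.129, adjusted p = 0.368).

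The 5 genes outside the list that followed it most closely across wells, by the smaller of the mean rho values with the members in GFP+ and in RFP+ spheroid wells, were Shkbp1 (0.132), Cry2 (0.118), Cdkn1a (0.117), Iqgap1 (0.116) and Ints4 (0.115). Cdkn1a encodes the cell cycle inhibitor p21 and Cry2 a circadian repressor. All of these values are weak.

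Some of the genes share exonic bases with a neighbour, and whether counting used the strand is not given in the sources used here. Junb shares 173 of its 2301 exonic bases with Prdx2, Jun 232 of 3189 with Junos, Zfp36 125 of 3470 with Gm44710 and Dusp1 11 of 3311 with Ergic1, in each case on the opposite strand in GENCODE M21. Without strand, reads from those stretches cannot be told apart from reads of the neighbour.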

How the data were processed

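Counts were taken as deposited. The authors used Trimmomatic 0.36 with a quality minimum of 35 and a length minimum of 36, aligned to mm10 by HISAT2 2.0.4, and counted reads per gene with featureCounts 1.5.2 of Subread, without normalization. Groups were taken from the sample labels. The members, gene lists and tests were chosen with earlier results of these data known.

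CPM shown per well use total counts. Each comparison was fitted on all genes by edgeR 4.0.16 under R 4.3.3, with limma 3.58.1 (TMM, filterByExpr with minimum count 10, minimum total 15 and minimum proportion 0.7, quasi-likelihood test), with Benjamini-Hochberg adjustment and a threshold of 0.1. DESeq2 1.42.0 was an alternative. Permutation tests used log2 CPM with a prior count of 2. Limits for 0 reads stand for 3 reads and cover counting error only, since reads carry no molecular identifiers. The code for the edgeR fits, the permutation tests and the correlations was tested on simulated data.

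Outside the 10 genes, the text names the 3 largest changes among called genes of each list per comparison, the 5 genes of highest mean rho and marker genes. Gene positions are from GENCODE M21 and promoters from RefSeq, both for GRCm38.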

Additional observations from a re-analysis of the deposited data

Results flagged for a closer look

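In groups of 4 or 5 wells, the gap between the highest or lowest well and its neighbour was set against Dixon's 95% critical value, for 16 combinations of gene and embryo group with any read. That value lets about 1 in 20 groups of normally distributed levels pass, and 3 passed here. The levels hold many zeros, and a group with reads in only 1 well always passes. The 3 therefore cannot be read against that rate. Jun in GFP+ embryo cells was at 53.3 CPM in well C12 and at 0 in the other wells. Dusp1 in GFP+ embryo cells was at 31.7 CPM in well E12, the other wells reaching 1.19 CPM at most. Dusp1 in RFP+ embryo cells was at 26.5 CPM in well G12, and its next value was 12.3 CPM.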

How the results depend on the processing

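In vivo, RFP+ against GFP+, 0 of the 10 genes were called, 2 with DESeq2, 1 without the filter on low counts and 0 to 1 when each embryo well was left out. Without GFP+ well E12 the call was Dusp1, and without RFP+ well G11 it was Atf3. For the difference of the changes between embryo and spheroid, 0 were called, 7 by an interaction term in 1 edgeR fit, 1 with DESeq2 fold changes (added after the data had been seen) and 0 to 1 when each embryo well was left out. The cause was not tested. The counts in the spheroids, in GFP+ cells and in RFP+ cells stayed within 1.5 times, with 8 to 9 and 1 to 1 called for GFP+ and RFP+ embryo against spheroid when each embryo well was left out. Signs turned in 12 of 384 values of single genes, none of them past the threshold. In RFP+ embryo against spheroid these were Ier3 (-0.024 with total counts, -0.12 with near-identical wells summed, -1.03 to 0.43 leaving out wells), Atf3 (-0.033 with total counts, -0.64 to 0.44 leaving out wells), Fos (-0.31 to 0.57 leaving out wells) and Zfp36 (-0.57 to 0.88 leaving out wells). Fos in GFP+ embryo against spheroid ran from -0.087 to 1.04, and its difference of changes from -1.10 to 0.14, when each embryo well was left out. Depth limits what embryo wells show for genes at 0 reads. Wells carry no replicate numbers shared between groups. With plate row as a covariate, 7 members were called in the spheroids.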
